A study of Mus musculus with 4 samples.

Results

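The microRNAs (miRNAs) of the stromal vascular fraction (SVF) of mouse visceral white adipose tissue (visWAT) were described as they stood after vehicle alone. A miRNA was kept where the scanner software called it detected on both vehicle arrays, which left 406 of the 1247 mouse miRNAs on the array. The SVF is what remains of a fat pad once collagenase has freed its cells and the floating adipocytes have been taken off. It holds preadipocytes and other fibroblastic cells, endothelial and mural cells of the vessels, and resident leukocytes. The study set vehicle against the β3-adrenergic agonist CL-316,243 (CL) on 4 arrays, and the 2 CL arrays (3dCL) are not described here. The 2 Control samples came from female wild-type mice of 8 weeks that had received PBS for 3 days. The strain was labelled C57/BL6 for vehicle 1 and C57/BL7 for vehicle 2, while the protocol text of both named C57/BL6. The labels gave the injections as subcutaneous and the methods of the study as intraperitoneal. Each sample pooled the SVF of 5 mice, so the pair of arrays showed the spread between pools and not between animals. With 2 arrays and no contrast, the values below are a description and no test was run.

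A miRNA gene is transcribed into a hairpin, Drosha and Dicer trim the hairpin to a short duplex, and an Argonaute protein keeps a strand of it. The strand from the left arm of the hairpin is written 5p and that from the right arm 3p. The loaded miRNA pairs with messenger RNAs mainly through its seed, bases 2 to 8, and lowers their stability and translation. miRNAs that share a seed form a family with overlapping targets. In adipose tissue, miRNAs of the let-7, miR-26, miR-27 and miR-103/107 families are known regulators of preadipocyte differentiation, miR-126 is made by endothelial cells, and miR-142 and miR-223 are made by blood cells.

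The level of a miRNA was the sum of the scanner software's total signals over its distinct probes, each counted where its signal exceeded 3 times its own error, on a linear scale in arbitrary units. The share was that level as a percentage of the summed level of the 406 miRNAs on the same array. The levels of the 406 summed to 300980 on vehicle 1 and 289102 on vehicle 2. The scanner software called 431 miRNAs detected on vehicle 1 and 420 on vehicle 2, with 39 called on 1 array only and 802 on neither. The mean signal of negative control spots was 37.1 on vehicle 1 and 31.7 on vehicle 2, and 0 miRNA spots were saturated. Those control values are mean signals of single spots without background subtraction, so they are not on the scale of the levels. Probes of different miRNAs bind with different strength, so a ratio between 2 miRNAs, or between 2 arms, held the probes' difference as well as that of the RNA. In bulk RNA, fewer cells of a type and less RNA per cell cannot be told apart.

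The sequences of the miRNAs on which the ranking turned are given first, 5′ to 3′ from RefSeq (GRCm38.p6), with the seed in capitals. They are the 6 miRNAs of the 20 brightest that carry a number of 1000 or above and have a RefSeq entry, followed by miR-126-3p, miR-451a and miR-21a-5p, which are known from endothelium, red cells and fibroblasts.
miR-6366: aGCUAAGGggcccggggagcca
miR-3963: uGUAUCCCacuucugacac
miR-5100: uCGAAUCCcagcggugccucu
miR-1224-5p: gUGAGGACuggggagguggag
miR-5126: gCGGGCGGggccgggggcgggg
miR-3473b: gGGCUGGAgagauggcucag
miR-126-3p: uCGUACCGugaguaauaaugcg
miR-451a: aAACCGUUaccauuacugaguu
miR-21a-5p: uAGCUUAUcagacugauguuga

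RefSeq placed miR-6366 at chr16:18165093-18165114 and miR-3963 at chr3:151023839-151023857, both on the minus strand and within the span of no other gene of its table. miR-5100 at chr11:60728698-60728718 lay within the span of Mief2, miR-1224-5p at chr16:20604452-20604472 within Vwa5b2, and miR-126-3p at chr2:26591402-26591423 within Egfl7, the endothelial host gene of miR-126, all 3 on the plus strand. miR-5126 at chr1:84695890-84695911 lay within Dner and miR-3473b at chr10:41670774-41670793 within Ccdc162, both on the plus strand. miR-21a-5p at chr11:86584120-86584141 (minus strand) lay within Vmp1, and miR-451a at chr11:78073186-78073207 (plus strand) within no other gene. For 3 further bright miRNAs the longest probe on the array is given instead, in DNA letters and complementary to the miRNA.
miR-6243 probe: cgttcagtcataatccc
miR-5109 probe: tcggattcccctgg
miR-709 probe: tcctcctgcctc

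The signal of the visceral SVF was concentrated in few miRNAs. miR-6366 was the brightest, at 78627 on vehicle 1 and 65730 on vehicle 2, or 26.1% and 22.7% of the summed level. miR-3963 followed at 43053 and 46246, or 14.3% and 15.996%. These 2 together took 40.4% and 38.7%, and 5 miRNAs took over 50% on each array. The longest probes of miR-6366 and miR-3963 had 12 and 16 bases, and how far they also took up other RNA was not tested. The 10 brightest held 62.3% and 63.5%, and the 100 brightest held 95.1% and 95.3%. At the other end, 225 miRNAs on vehicle 1 and 219 on vehicle 2 were needed to reach 99%. The mean log2 level of both arrays ran over 15.03, from miR-6366 down to miR-342-5p (2.09 and 2.21). The highest and lowest single values, both on vehicle 1, were 78627 for miR-6366 and 2.03 for let-7d-3p. The median mean level was 46.7.

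**Figure D1:**
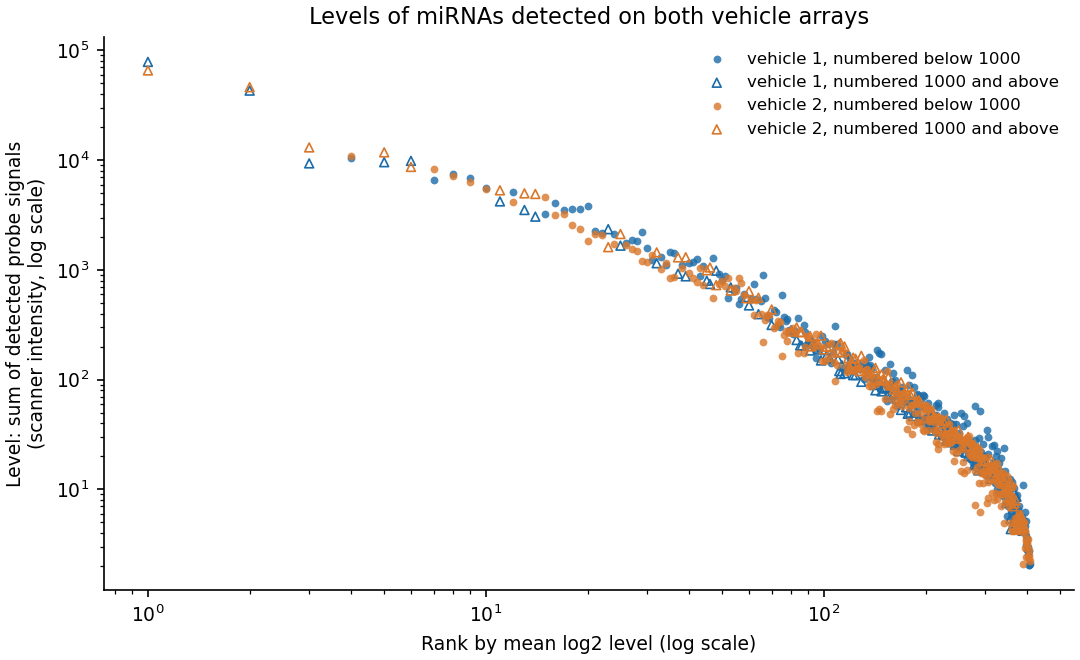
Level of each of the 406 miRNAs (arbitrary units, log axis) by its rank, with a point for each vehicle array. The curve fell steeply over the first ranks, from miR-6366 at 78627 and 65730, and 42 miRNAs on vehicle 1 and 39 on vehicle 2 lay above 1000.

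Below these 2, rank 3 was held by miR-6243, at 9347 and 13066. The endothelial miR-126-3p was at rank 4 with 10558 and 10888. miR-5109 had 9580 and 11781, and miR-5100 had 9856 and 8677. miR-451a, the miRNA that red cells make in bulk through Argonaute 2 rather than Dicer, was at rank 7 with 6539 and 8282. The order of miR-6243, miR-126-3p, miR-5109 and miR-5100 was not the same on both arrays, and their levels overlapped between arrays.

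Ranks 8 to 10 were let-7c-5p at 7545 and 7157, let-7a-5p at 6877 and 6358, and let-7b-5p at 5603 and 5448. let-7 miRNAs accumulate as cells differentiate and restrain growth genes. miR-21a-5p, abundant in many fibroblasts and macrophages, was at rank 20 with 3784 and 1821. That 2.08-fold gap was the widest between the arrays among the 20 brightest, of which 17 lay within 1.5-fold. Among those between them, let-7f-5p had 5132 and 4172, miR-1224-5p 4209 and 5311, and miR-3473b 3515 and 4981. miR-5126 had 3057 and 4918, and miR-709 had 3202 and 4627, so that all but let-7f-5p of these were brighter on vehicle 2. The ranks also held miR-26a-5p (4045 and 3155), miR-23a-3p (3538 and 3228), the fibroblast-enriched miR-125b-5p (3588 and 2567) and miR-29a-3p (3579 and 2376), which targets collagen messengers. miR-327, the miRNA that the study followed, had 19.5 on vehicle 1 and 30.6 on vehicle 2 and ranked 269. Of its 4 probes, 3 were summed on vehicle 1 and 4 on vehicle 2. Its rank was 294 on vehicle 1 and 239 on vehicle 2, and 358 with the scanner software's total per miRNA.

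Much of the signal belonged to miRNAs with high numbers, which were assigned late in the naming of mouse miRNAs. On the array, 449 miRNAs carried a number of 1000 or above and 798 a lower one (let-7 included). The high numbers made up 124 of the 406, or 27.6% of those on the array, against 282 and 35.3% for the low numbers. Those 124 nevertheless held 59.6% of the level on vehicle 1 and 62.9% on vehicle 2, and 8 of the 20 brightest. miR-6366 and miR-3963 alone gave most of that. Among the 282 with lower numbers, 12 miRNAs held 50% of their summed level on vehicle 1 and 10 on vehicle 2.

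Detection varied with the base content of the stretch that the longest probe covers. Of the miRNAs with under 20% G in that stretch, 22.8% were detected on both arrays. The share was 25.7% at 20 to 30% G, 29.4% at 30 to 40% and 49.4% at 40 to 50%. At 50% G or more it was 89.5%, or 68 of 76 miRNAs. Members with that much G had a median longest probe of 14 bases, and those with under 20% G one of 18 bases. Of miRNAs whose longest probe had 9 to 12 bases, 17 of 24 were detected, or 70.8%, and the 12-base probes of miR-6366 and miR-709 belong there. Number, G content and probe length moved together: the median stretch held 42.9% G in the 124 members with high numbers and 27.8% in the 282 with low ones. The part of each in these levels was not tested.

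Grouped by seed, 327 of the 406 had a mature sequence in RefSeq, 7 of them under a newer name, and they fell into 270 seeds. 31 seeds were carried by 2 or more members, 88 miRNAs in all with 24.9% and 22.2% of the level. Among these 31 the let-7 family led by far. The 10 detected members of that family are shown because they share GAGGUAG and differ at few other bases.
let-7c-5p: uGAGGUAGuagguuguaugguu
let-7a-5p: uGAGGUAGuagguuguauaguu
let-7b-5p: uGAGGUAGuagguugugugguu
let-7f-5p: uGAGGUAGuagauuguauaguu
let-7d-5p: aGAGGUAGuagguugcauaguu
let-7g-5p: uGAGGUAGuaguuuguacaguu
let-7i-5p: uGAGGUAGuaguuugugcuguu
let-7e-5p: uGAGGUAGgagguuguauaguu
miR-98-5p: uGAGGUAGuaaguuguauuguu
let-7k: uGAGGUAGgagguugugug

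let-7g-5p at chr9:106178846-106178867 (plus strand) lay within Wdr82, let-7e-5p at chr17:17830366-17830387 (plus) within Spaca6 and miR-98-5p at chrX:151913229-151913250 (plus) within Huwe1, while let-7i-5p at chr10:122985698-122985719 (minus) lay within no other gene. let-7a-5p and let-7d-5p were placed on the minus strand of chromosome 13, at chr13:48538239-48538260 and chr13:48536078-48536099.

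let-7 took 10.8% of the level on vehicle 1 and 10.3% on vehicle 2, with 10 of the 11 miRNAs of this seed on the array detected. let-7c, let-7a, let-7b and let-7f made up most of it. let-7d-5p (2183 and 2081), let-7g-5p (2123 and 1725) and let-7i-5p (1870 and 1537) were of one order, and the arrays overlapped for the first pair. let-7e-5p had 1104 and 1042, miR-98-5p 132 and 111, and let-7k 5.20 and 6.13. let-7a-5p and let-7b-5p each differ from let-7c-5p at 1 base, let-7f-5p at 2 and let-7i-5p at 4. How far a probe of this family also took up its neighbours was not tested.

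The second family, AGCAGCA, had 6 of its 10 miRNAs detected and held 2.66% and 2.20%. It is the miR-15/16 family, which lowers cyclins and Bcl2. Of the other 5, miR-195a-5p differs from miR-16-5p at 2 bases, miR-15a-5p at 6 and miR-497-5p at 11. miR-15a-5p at chr14:61632075-61632096 (minus strand) lay beside a miR-16 gene within the lncRNA gene Dleu2, and miR-195a-5p (chr11:70235062-70235082, plus) lay beside miR-497-5p (chr11:70234730-70234751, plus).
miR-16-5p: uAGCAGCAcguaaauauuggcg
miR-195a-5p: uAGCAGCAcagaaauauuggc
miR-15b-5p: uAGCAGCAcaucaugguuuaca
miR-15a-5p: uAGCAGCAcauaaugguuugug
miR-497-5p: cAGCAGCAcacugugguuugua
miR-322-5p: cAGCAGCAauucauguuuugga

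miR-16-5p had 1756 and 1682, miR-195a-5p 1574 and 1179, and miR-15b-5p 1108 and 1154. miR-15a-5p, 497-5p and 322-5p were at 1426, 1261 and 873 on vehicle 1, and at 857, 773 and 715 on vehicle 2. All 6 thus stood within a narrow band, unlike let-7, whose members ran from 7545 down to 5.20 on vehicle 1.

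The miR-29 family is shown for its members' unequal behaviour between the arrays.
miR-29a-3p: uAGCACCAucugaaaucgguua
miR-29c-3p: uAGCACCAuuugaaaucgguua
miR-29b-3p: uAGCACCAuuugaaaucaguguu

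miR-29a-3p lies at chr6:31062673-31062694 (minus strand), and miR-29c-3p at chr1:195037600-195037621 (plus) within the lncRNA gene A330023F24Rik, as does a gene of miR-29b-3p.
All 3 were lower on vehicle 2. miR-29a-3p had 3579 and 2376, miR-29c-3p 748 and 387, and miR-29b-3p 892 and 221. The family's share was 1.73% on vehicle 1 and 1.03% on vehicle 2. Similar shares were held by miR-26a-5p with miR-26b-5p, at 1.73% and 1.38%, and by miR-125b-5p, miR-125a-5p and miR-6394, at 1.29% and 0.99%. miR-3473b and miR-3473e were the one pair with high numbers among the 6 leading families of matched miRNAs, at 1.21% and 1.78%. The other members of these families were dimmer: miR-26b-5p had 1168 and 836, miR-125a-5p 276 and 268, miR-3473e 135 and 178, and miR-6394 16.6 and 22.1. Among seeds with 2 or more matched members, those of miR-10 (0.62% and 0.71%), miR-27 (0.82% and 0.48%) and miR-30 (0.67% and 0.57%) followed. miR-23 has no place in this order, because miR-23b-3p (0.23% and 0.22%) was not matched in RefSeq. miR-23a-3p alone held 1.18% and 1.12%. miR-30b-5p and miR-30d-5p were not matched in RefSeq; with both counted by name, miR-30 held 0.91% and 0.76%. The miR-103/107 pair, whose targets include caveolin and which lowers insulin sensitivity of fat, held 0.45% and 0.46%.

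**Figure D2:**
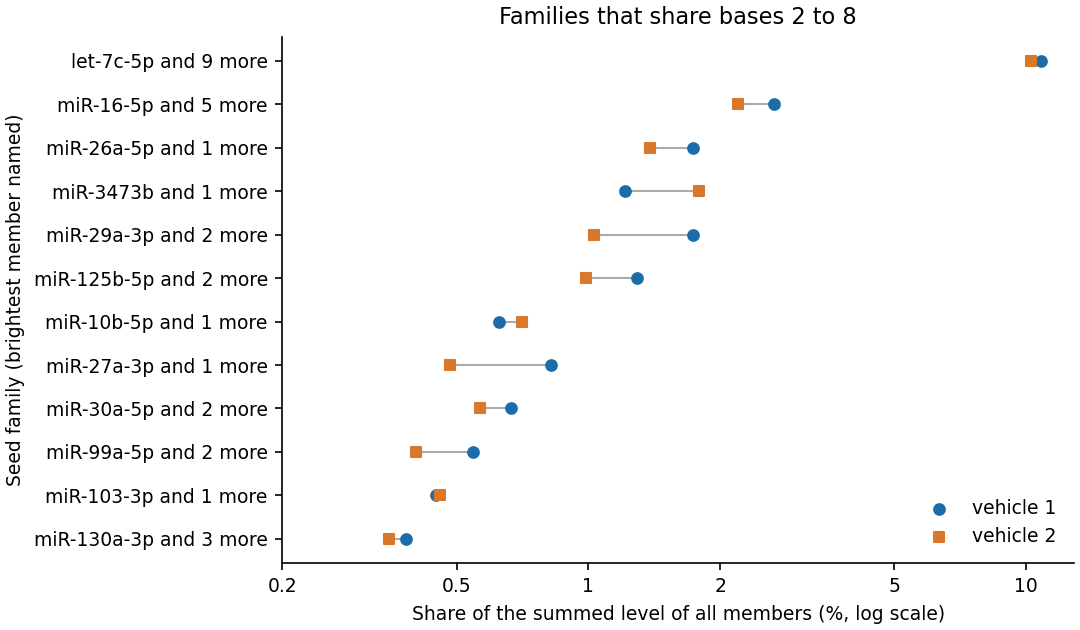
Share of the summed level (percent) of the leading seed families, with a mark for each vehicle array. let-7 stood at 10.8% and 10.3%, and no other seed shared by 2 or more matched members passed 2.66%. Seeds carried by a single member, such as that of miR-6366 (26.1% and 22.7%), are not shown.

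Arm use could be read for 422 hairpins with a 5p and a 3p miRNA on the array. For 48 of these both arms were detected on both arrays, for 172 only 1 (82 the 5p arm and 90 the 3p arm), and for 202 neither. Where both were detected, the 5p arm was the brighter in 27 and the 3p arm in 21, and the median ratio of brighter to dimmer arm, taken over the hairpins' means of both arrays, was 6.05-fold. The same arm led on both arrays in 47 of 48. The exception was miR-542, with 11.3 against 11.8 (5p against 3p) on vehicle 1 and 9.82 against 4.202 on vehicle 2.

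The widest measured gap was let-7d, where 5p was 1073-fold brighter on vehicle 1 and 879-fold on vehicle 2, against a 3p arm at 2.03 and 2.37. With the scanner software's own total in place of the probe sum, the 3p arm of let-7d was the brighter one. miR-21a followed, with 5p brighter 535-fold and 405-fold, then miR-195a with 293-fold and 209-fold, and miR-322 with 231-fold and 212-fold. The 3p arms of miR-195a (5.37 and 5.63) and miR-322 (3.78 and 3.37) were dim as well. Over the other ways of making a level, their log2 ratios went as low as 3.27 and 3.82. The 3p arm led by 134.5-fold and 125.6-fold in miR-342, by 73.6-fold and 102-fold in miR-126, and by 43.69-fold and 44.98-fold in miR-22. The 5p arm of miR-342 was at 2.09 and 2.21, among the dimmest members, and with the scanner software's total its 3p lead was gone, at 0.01 on the log2 scale. In all, 18 hairpins had a gap over 10-fold, 12 of them towards 5p. Of these, let-7d, miR-342, miR-30b, miR-99b, miR-379 and miR-193a did not keep the same arm under every way of making a level. All of them did with the scanner software's total set aside.

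Arms were near each other in 6 hairpins, at under 2-fold. miR-1188 had 4.32 and 5.81 for 5p and 4.24 and 4.49 for 3p. miR-652 had 166 and 134 for 5p and 219 and 199 for 3p, and miR-140 had 128 and 87.9 against 180 and 169. miR-337 had 32.6 and 22.8 for 5p and 29.2 and 11.5 for 3p. In miR-140, an abundant miRNA of cartilage and other mesenchyme, 3p led on both arrays. Hairpins whose arms were both fairly bright included miR-199a, from which fibroblasts make both strands (251 and 149 for 5p, 1462 and 842 for 3p), and miR-142 (111 and 32.0 for 5p, 592 and 163 for 3p). Of Mir199b the array held only miR-199b-5p (1286 and 557), with no separate 3p miRNA. How far a 3p strand from Mir199b added to the level of miR-199a-3p was not tested, so the arm ratio of miR-199a may not be that of 1 hairpin. The ratio of the arms of miR-142 was 5.35-fold and 5.10-fold towards 3p, although both arms were over 3-fold lower on vehicle 2. Among the hairpins with 1 arm detected on both arrays, the brightest were let-7b-5p, miR-1224-5p, miR-23a-3p and miR-29a-3p. The 5p arm of miR-23a was detected on 1 array, and the other arms of the remaining 3 on neither.

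**Figure D3:**
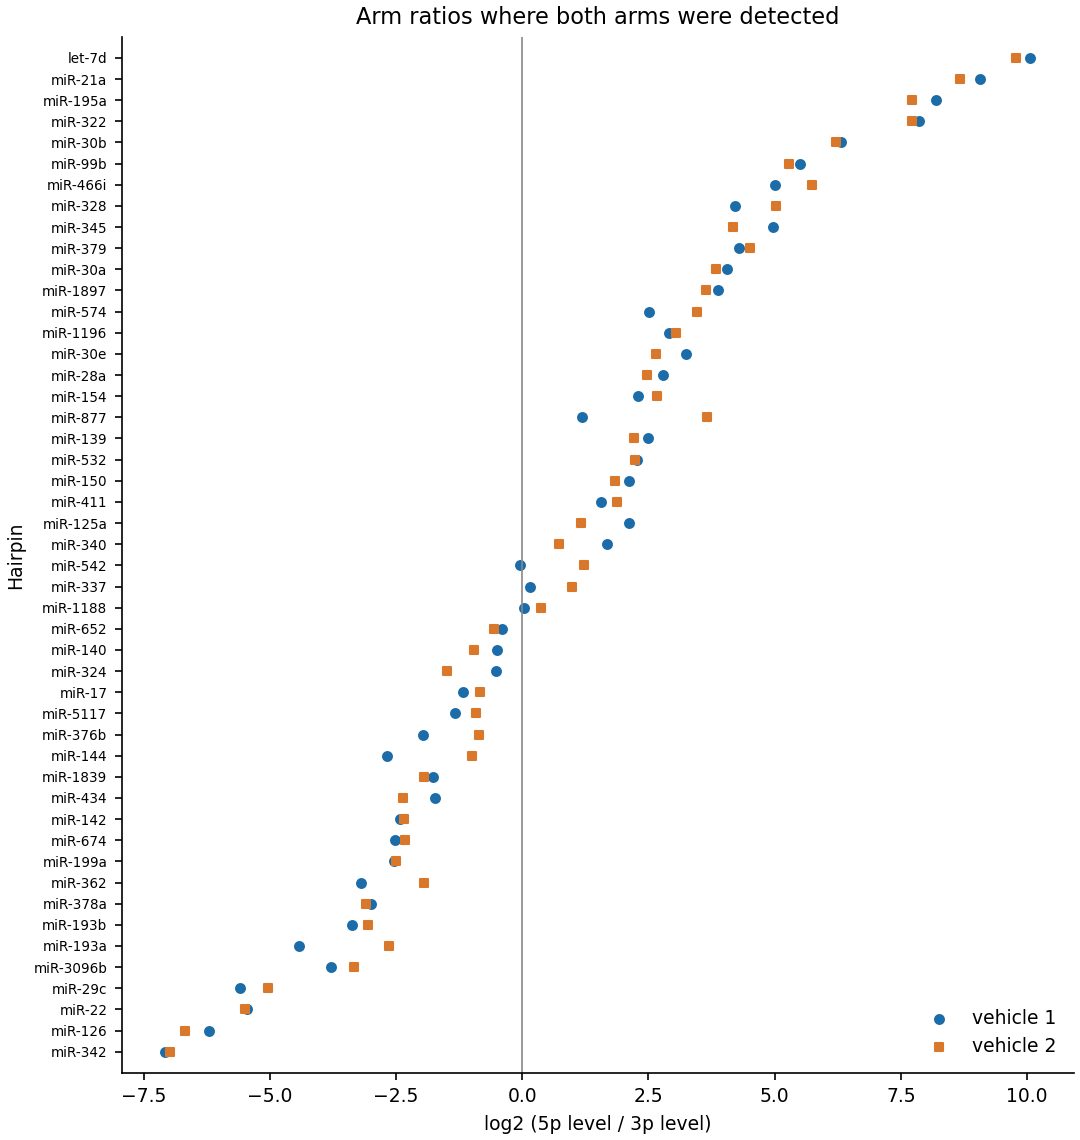
Log2 ratio of the 5p to the 3p level for the 48 hairpins with both arms detected, with a point for each vehicle array. Values above 0 mean a brighter 5p arm; let-7d lay highest at 10.07 and 9.78 and miR-342 lowest at −7.07 and −6.97. In both the dimmer arm was among the dimmest of the 406 miRNAs, and neither gap remained with the scanner software's total.

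RefSeq genes placed 389 of the members, and 155 of them lay in 54 clusters of miRNA genes chained at gaps of up to 10 kb. A mature miRNA with several genes had its level split equally among them, since the array does not tell the genes apart. The brightest cluster was that of Mirlet7c-2 and Mirlet7b at chr15:85706603-85707403, with 3.11% and 3.12%. Mirlet7d, Mirlet7f-1 and Mirlet7a-1 at chr13:48536012-48538272 held 2.72% and 2.54%. The cluster of miR-23a, 27a and 24-2 at chr8:84208518-84208921 held 2.30% and 1.90%. Mir99a with Mirlet7c-1 at chr16:77598936-77599750 held 1.62% and 1.49%, and Mir100 with Mirlet7a-2 at chr9:41531425-41536811 held 1.28% and 1.21%. The sixth, miR-29a with 29b-1 at chr6:31062660-31063093, held 1.34% and 0.86%. Thus 4 of the 6 carry let-7 genes.

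Of the clusters with many miRNAs, 2 were set beside these. The largest cluster of an imprinted region, at chr12:109711803-109747960, has 35 miRNA genes and 69 miRNAs on the array. Of these, 20 (29.0%) were detected with 0.57% and 0.55% of the level. That share of detected miRNAs was near the 32.6% of all miRNAs on the array, and the cluster was at place 12 of the 54 by level. The 10 kb limit set apart the other chromosome 12 clusters with a member, which lie near it. They had 4 of 8, 7 of 16, 4 of 6 and 4 of 7 miRNAs detected. The cluster at chr2:10466663-10518279, inside the Sfmbt2 region, has 72 genes and 52 miRNAs on the array, of which 9 (17.3%) were detected with 0.044% and 0.053%. These clusters were named after their values were seen. Of the 389 placed members, 222 (57.1%) lay within the span of a protein-coding gene, against 58.5% of the 1218 placed miRNAs on the array.

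Lists of miRNAs known from particular cell types were set beside the background, in which 32.6% of the miRNAs on the array were detected on both arrays. They are short, and their members are the best-known and most abundant miRNAs of each type. Of the lists for stromal cells, the endothelial and leukocyte ones were detected whole. All 3 endothelial miRNAs were members, with 3.63% and 3.89% of the level, most of it miR-126-3p. miR-126-5p had 143 and 106 and miR-139-5p 211 and 252. Of the fibroblast list, 8 of 9 were members, with 3.13% and 2.27%. Beside miR-125b-5p, miR-10b-5p had 1231 and 1356, miR-199b-5p 1286 and 557, and miR-99a-5p 1096 and 734.

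All 7 leukocyte miRNAs were members, with 0.88% and 0.64%. The myeloid miR-223-3p had 1302 and 1016 and miR-342-3p 281 and 278. The lymphocyte miR-150-5p had 189 and 204, and miR-155-5p, induced on activation, had 22.77 and 26.001. Of this list, miR-142-3p and miR-142-5p were the ones that stood far apart between the arrays. Of the mural list 2 of 4 were members: miR-143-3p at 432 and 297, and miR-145a-5p at 103 and 109, both known for smooth muscle.

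The red cell list held 2.24% and 2.89%, nearly all of it miR-451a. Its neighbour miR-144-3p had 171 and 51.9, and miR-144-5p had 26.79 and 25.96. The remaining miRNA of the list, miR-486-5p, was not measured under that name. The cluster of Mir486 and Mir3107 had a member, miR-3107-5p, with 0.040% and 0.072% of the level. It was not counted in the list, and how far it stands for miR-486-5p was not tested. The adipocyte list, whose miRNAs preadipocytes also make, had 7 of 8 members with 0.68% on both arrays. miR-103-3p had 804 and 796, miR-107-3p 547 and 528, and miR-378a-3p, from the Ppargc1b locus, 124 and 129.

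Of the remaining lists, those for epithelium and mesothelium, liver, pancreas and pluripotent cells had 1 or 0 members each. Of the 7 epithelial and mesothelial miRNAs 1 was a member, miR-203-3p at 39.5 and 41.4 on the arrays. miR-200b-3p was detected on 1 array and the remaining 5, among them miR-200a-3p and miR-205-5p, on neither. Neither of the liver list's 2 miRNAs and none of the pancreas list's 3 were detected on either array, so the labelled tissue carried no detected miR-122 or miR-375. Of the 10 pluripotent cell miRNAs 1 was a member, miR-290-5p at 47.0 and 41.8.

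In the muscle list 4 of 6 (66.7%) were members and all 4 were lower on vehicle 2: miR-1a-3p had 175 and 54.4, miR-133b-3p 116 and 53.8, miR-133a-3p 58.1 and 27.2, and miR-206-3p 37.9 and 17.9. In the neuron list 2 of 5 (40.0%) were members. miR-124-3p had 538 and 758 and ranked 57, while miR-9-5p, miR-9-3p and miR-137-3p were detected on neither array. The remaining member, miR-219-5p, had 23.8 and 4.96.

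**Figure D4:**
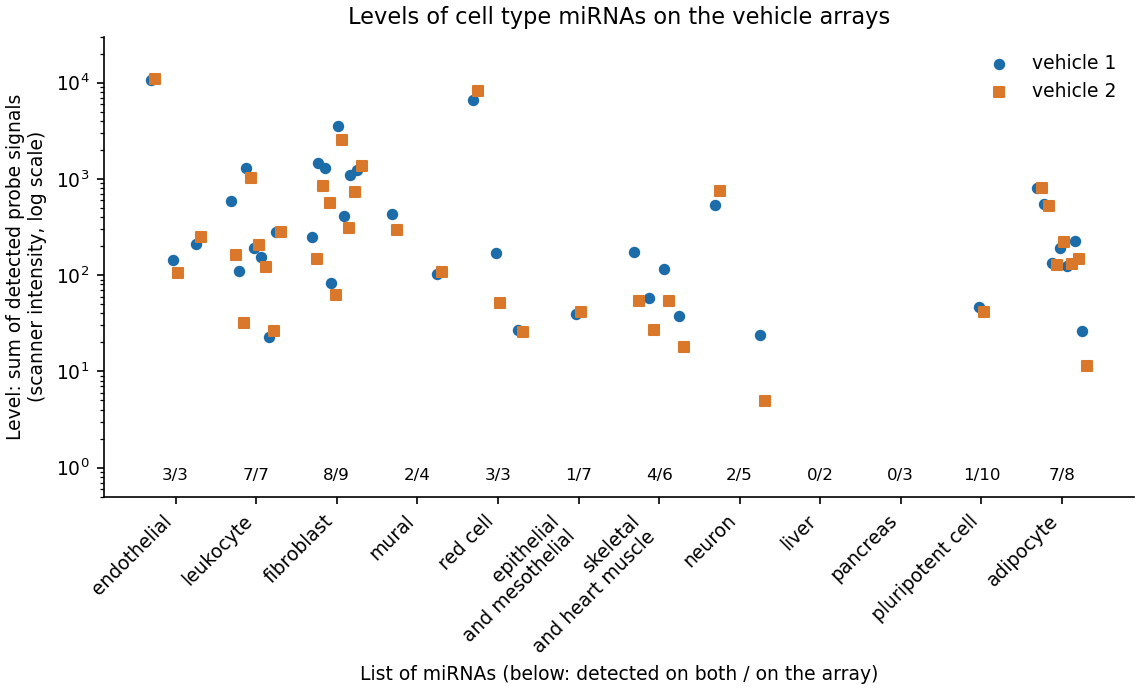
Levels (arbitrary units, log axis) of the members of each cell type list on the vehicle arrays. miR-126-3p and miR-451a stood highest, at 10558 and 10888 and at 6539 and 8282, and the liver and pancreas lists had no member.

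Between the 2 vehicle arrays the ranking was much the same. Pearson's r of the log2 levels was 0.97 and Spearman's rho 0.96 over the 406 miRNAs, which are no replicates of each other. The arrays shared all of their 10 brightest, 19 of their 20 brightest and 45 of their 50 brightest. The median difference was 0.40 on the log2 scale whatever its sign, and 296 miRNAs (72.9%) agreed within 1.5-fold. A gap over 2-fold was seen in 48, of which 45 were higher on vehicle 1 and 3 on vehicle 2. The gap exceeded 3 times the scanner's combined error in 67. The same number of probes was summed on both arrays in 368 of the 406. In the others a gap also held the signal of a probe counted on 1 array only.

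Among the 6 largest gaps in each direction, 4 miRNAs are shown with their sequences. The first pair had the largest falls on vehicle 2, and the second pair was higher there.
miR-136-5p: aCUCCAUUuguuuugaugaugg
miR-376a-3p: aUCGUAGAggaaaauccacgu
miR-760-3p: cGGCUCUGggucugugggga
miR-6347: cAGUGCGGcuggcuggagaugc

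miR-136-5p had 52.0 on vehicle 1 and 6.27 on vehicle 2, and miR-376a-3p 57.7 and 7.26. Both lie among imprinted miRNA genes, at chr12:109595331-109595352 and chr12:109723824-109723844 on the plus strand, and miR-376b-3p of the same region had 34.4 and 7.50. miR-877-3p had 10.9 and 2.08. miR-29b-3p, miR-142-3p and miR-219-5p had the gaps given above. The largest changes the other way were smaller: miR-3070a-3p had 4.34 and 11.6, miR-598-5p 4.26 and 10.71, miR-760-3p 5.75 and 13.3, and miR-6347 5.42 and 10.8. miR-6392-3p, with 113 and 215, and miR-125a-3p, with 64.0 and 120, were the brightest miRNAs among the 6 largest gaps in this direction.

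These differences followed base content and probe length. The median of vehicle 2 minus vehicle 1 on the log2 scale was −0.36 at under 20% G, −0.38 at 20 to 30%, −0.04 at 30 to 40%, 0.26 at 40 to 50% and 0.43 at 50% or more. Of the 68 members with the most G, 60 were higher on vehicle 2, and of the 106 with 20 to 30% G 17 were. By longest probe, the median went from 0.50 for 9 to 12 bases through −0.16 for 17 to 18 to −0.43 for 19 to 23. By number it was −0.25 below 1000 and 0.34 from 1000 up. The part of these properties in any single gap, such as those of the muscle list, miR-142 and miR-29, was not tested.

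**Figure D5:**
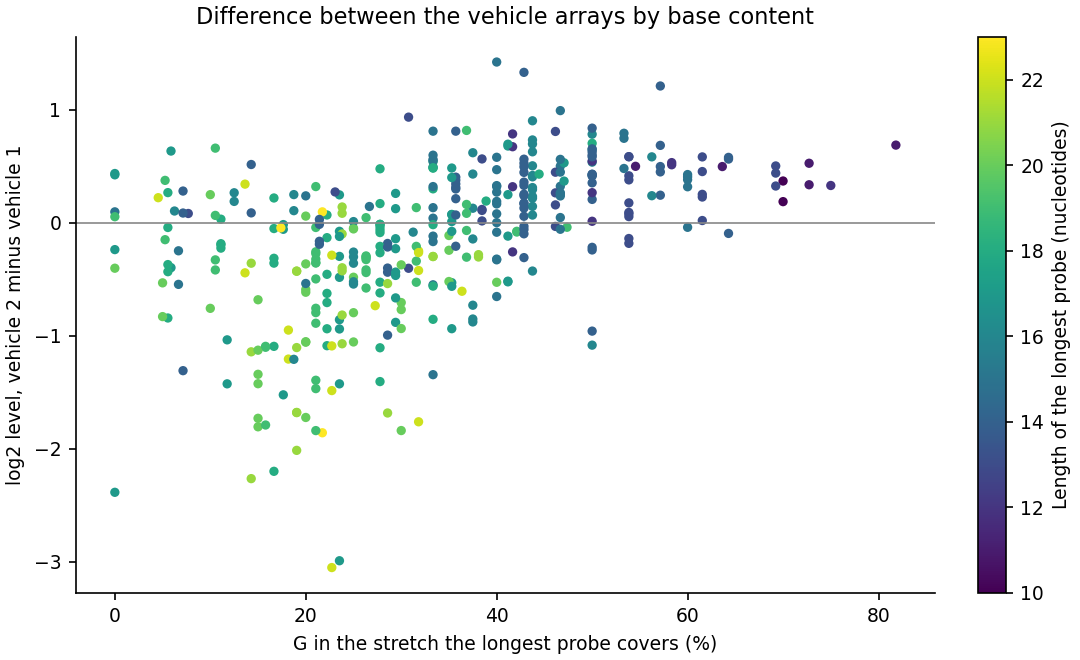
Log2 level on vehicle 2 minus vehicle 1 for the 406 miRNAs, against the percentage of G in the stretch covered by the longest probe. Points shifted from mostly below 0 at low G (median −0.36 under 20%) to mostly above 0 at high G (median 0.43 from 50%).

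Probes of the same miRNA gave a measure of how far a level depends on the probe. In 321 members a probe could be set against one that was shorter by 1 base. The longer probe was brighter on both arrays in 270, with a median ratio of 1.62 on vehicle 1 and 1.59 on vehicle 2. The middle 50% of the ratios ran from 1.16 to 2.40, and 52 exceeded 3 on both arrays. miR-21a-5p had 3.25 and 3.08, let-7c-5p 2.87 and 2.88, and miR-126-3p 1.34 and 1.35. For miR-6366 the longer probe was the dimmer, at 0.535 and 0.501, and miR-3968 had 25.8 and 24.5. These ratios repeated closely between arrays while differing widely between miRNAs.

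The threshold of detection was not sharp. The 5 dimmest members were miR-292-5p (2.98 and 2.38), miR-615-3p (2.75 and 2.52), miR-345-3p (2.06 and 2.77), let-7d-3p (2.03 and 2.37) and miR-342-5p (2.09 and 2.21). On vehicle 1 each of them was read from 1 of its 4 probes. Among the 39 miRNAs detected on 1 array only, the brightest were miR-136-3p at 13.8, miR-409-5p at 13.2 and miR-380-3p at 10.5 on vehicle 1, and miR-6388 at 9.62 on vehicle 2. miR-3106-5p had 9.60 on vehicle 1. Of the 406, 70 were dimmer than 13.8 on both arrays, so the order of the lowest levels and the absence of a call carried little weight there.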

How the data were processed

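The authors hybridised total RNA of the visWAT SVF to Agilent mouse miRNA arrays, 1 colour. The deposited scanner files hold intensity values made by the authors with Feature Extraction 10.7.1.1, and the deposited series table holds log2 values that were used as an alternative. The methods name RMA and SAM without stating how they were applied here.

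From there, per miRNA, total probe signals above 3 times their error were summed over distinct probes (Python 3.11.15, pandas 2.3.3), already background-subtracted by the scanner software, with no further correction or scaling. Arrays were compared as shares or log2 levels. Groups came from the sample labels, and the CL arrays were not used. Names given in the text are the 20 brightest miRNAs, the leading families, arms, clusters and array differences, the dimmest miRNAs, the fixed lists and miR-327. The 2 large clusters with those near the first, the arms of miR-199a and miR-142, families below the sixth, and miR-23b-3p were named after their values were seen. The members and lists were chosen with earlier results of these data known. The level script was tested on simulated data. Levels were remade in 7 other ways, and 2 further alternatives were added after seeing the data. Coordinates come from RefSeq (GRCm38.p6), not from the array's own annotation. The alternative normalization used R 4.3.3 and limma 3.58.1. Precision was limited by the 2 arrays.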

Additional observations from a re-analysis of the deposited data

How the results depend on the processing

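No test was run, so no call could be lost, and the values below show how far each description moved. Of the 20 brightest miRNAs 17 kept their place among them under the scanner software's total per miRNA, 19 under normexp with quantile normalization and median polish, and 20 under the 5 other ways of making a level. miR-6366 was the brightest throughout except with the longest probe alone, where miR-3963 was. The share of the 10 brightest, 62.9% as a mean of the arrays, was 55.5% with the scanner total, 61.7% with normexp, 58.7% with the longest probe and 66.0% in the deposited table. The let-7 share, 10.5%, was 9.81%, 8.83%, 12.8% and 9.48% in the same order. The share of the cluster of Mirlet7c-2 and Mirlet7b, 3.12%, was 2.75% with the scanner total, 2.21% with normexp, 3.70% with the longest probe, 3.13% with the mean of the probes, 3.12% with probes above 5 times their error and 2.80% in the deposited table. Hairpins with a brighter 5p arm, 55.2% as a mean of the arrays, were 57.3% with the longest probe and 58.3% with the mean of the probes. The median arm ratio, 2.69 on the log2 scale as a mean of the 2 arrays' medians, was 1.78 with the scanner total, 2.11 with normexp, 2.84 with the longest probe, 2.81 with the mean of the probes, 2.57 with all probes, 3.83 with probes above 5 times their error and 3.15 in the deposited table. Fewer hairpins keep both arms at the stricter error, and the cause of the other shifts was not tested. The scanner total exceeded the probe sum by over 1.1 times in 102 members, none of them among the 100 brightest, and by over 10 times in 52. The same arm led under every setting in 30 of 48 hairpins, and in 44 of 48 with the scanner total set aside. Among members numbered below 1000 alone, an alternative chosen after seeing the data, the 10 brightest held 49.3%, let-7 held 27.2% and 11 miRNAs as a mean of the arrays held 50%, against 5 over all. Placing members without a sequence by number and arm, also added later, left the let-7 share at 10.5%. Detection on both arrays ran from 340 with a probe above 5 times its error to 406, and single arrays gave 420 and 431. No paired analysis was possible because only the vehicle group was described. Dim members near the threshold of detection limit what the arrays can show.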
